A study of Gallus gallus with 8 samples.

Results

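The small leucine-rich proteoglycans are a family of secreted matrix proteins, and their transcripts were compared between hypertrophic and proliferative chondrocytes of the chick growth plate. A total of 9 genes was sought: DCN (decorin), BGN (biglycan), FMOD (fibromodulin), LUM (lumican), OGN (osteoglycin), EPYC (epiphycan), PRELP, CHAD (chondroadherin) and KERA (keratocan). A probe set of the Affymetrix chicken array was taken where its only gene symbol in the platform annotation is one of these names. That gave 11 probe sets of 38439, for 8 genes of 13009. BGN had 4 probe sets, 7 genes had 1 each, and no probe set carried the symbol CHAD alone, so CHAD was not analysed here.

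The study set 4 arrays of hypertrophic chondrocytes from 1-day-old chicks against 4 arrays of proliferative chondrocytes from 3-week-old chicks. All cells came from the growth plate of the tibiotarsus, the shin bone of birds, were isolated and pooled, and had no treatment. The labels give no strain or sex, and do not say whether each array holds its own birds or pool. The p-values thus reflect the spread among these arrays alone, which may be technical. Age and cell stage change together between the groups, so their effects cannot be told apart.

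Small leucine-rich proteoglycans have a core of leucine-rich repeats that bends into a curved surface and binds fibrillar collagen, and many carry glycosaminoglycan chains. DCN, BGN and EPYC are known to carry chondroitin or dermatan sulfate, and FMOD, LUM and KERA keratan sulfate. In cartilage and other connective tissues they govern the thickness and spacing of collagen fibrils, and several bind TGF-beta family growth factors or cell surface receptors. Proliferative chondrocytes divide in columns and deposit matrix, and hypertrophic chondrocytes enlarge and remodel that matrix before bone replaces it.

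The deposited values are log2 expression values made by RMA, which normalises the arrays together and summarises the probes of a probe set. They lie between 2.52 and 14.7. A difference is the hypertrophic mean minus the proliferative mean on this log2 scale, and was tested two-sided with limma. P-values were adjusted by Benjamini-Hochberg across all 38439 probe sets, and 0.05 was the threshold. Each difference is followed by its standard error from limma (n = 4 arrays a group). Background on an array was set at the 95th percentile of its 744 viral and reporter probe sets, which lay between 4.34 and 4.75.

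The labels were set against marker genes. The cartilage collagen COL2A1 was at 14.4 to 14.6 on hypertrophic arrays and 14.6 to 14.7 on proliferative arrays, the brightest part of the scale. Of 9 hypertrophic markers 2 rose, 0 fell and 7 did not pass, and of 5 proliferation markers 2 fell, 0 rose and 3 did not pass. Over all genes 7.34% rose and 5.6% fell. The matrix phosphoprotein SPP1 and the collagenase MMP13, both made by late chondrocytes, were higher in hypertrophic cells (adjusted p = 0.00225 and 0.0483 in limma), and the proliferation genes MKI67 and CDK1 were lower (adjusted p = 0.00763 and 0.00431), while COL10A1, the collagen that defines hypertrophy, was bright in both groups and did not pass (adjusted p = 0.444). IBSP, ALPL, RUNX2 and VEGFA differed by 2.62, 0.28, 0.42 and 0.29, and IHH and PANX3 by -0.43 and -0.50, none past the test. The proliferation genes TOP2A, BUB1 and PLK1 did not pass either (adjusted p = 0.0834, 0.108 and 0.0639 in limma). Arrays 3 and 4 of each group were nearly alike. Over 20449 probe sets brighter than background the SD of their difference was 0.251 in hypertrophic and 0.248 in proliferative cells, against 0.399 to 0.839 for the other pairs of a group. Whether arrays 3 and 4 are independent cannot be read from the values, so calls are also given after averaging them, which leaves 3 samples a group. After averaging, SPP1 and CDK1 kept their calls (adjusted p = 0.0320 and 0.0429 in limma), and MMP13 and MKI67 lost them (adjusted p = 0.124 and 0.0577).

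FMOD and EPYC were well above background in both cell stages and were 2.70-fold and 2.12-fold lower in hypertrophic cells. DCN, also well above background, differed by 0.18 ± 0.31 and did not pass. LUM and PRELP were dim, with differences of 1.05 ± 0.39 and -0.79 ± 0.35 that did not pass, and BGN, OGN and KERA were below background on every array. By limma, 2 of the 8 genes fell, 0 rose and 6 missed the threshold, where 5.6% of all genes fell and 7.34% rose. By probe set, 2 of 11 fell and 0 rose, against 4.27% and 4.49% of all probe sets. An unadjusted limma p under 0.05 was found in 4 of the 11, and in 8652 of all 38439 probe sets. With arrays 3 and 4 averaged 0 of the 8 genes fell and 0 rose, against 1.24% and 2.01% of all genes. Centred on ribosomal protein genes, which moved every difference by -0.15, the same 2 members fell, and over all probe sets 1429 were higher and 3303 lower, in place of 1726 and 1642. With 8 genes, these counts do not set the family apart from the array as a whole. The median difference over the 8 genes was 0.00, beside a median of -0.01 over all genes. That median lay between the differences of BGN (-0.15) and KERA (0.15), both below background on every array, so it does not describe the genes above background. In pooled cells, fewer cells of a type and less RNA per cell cannot be told apart.

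**Figure D1:**
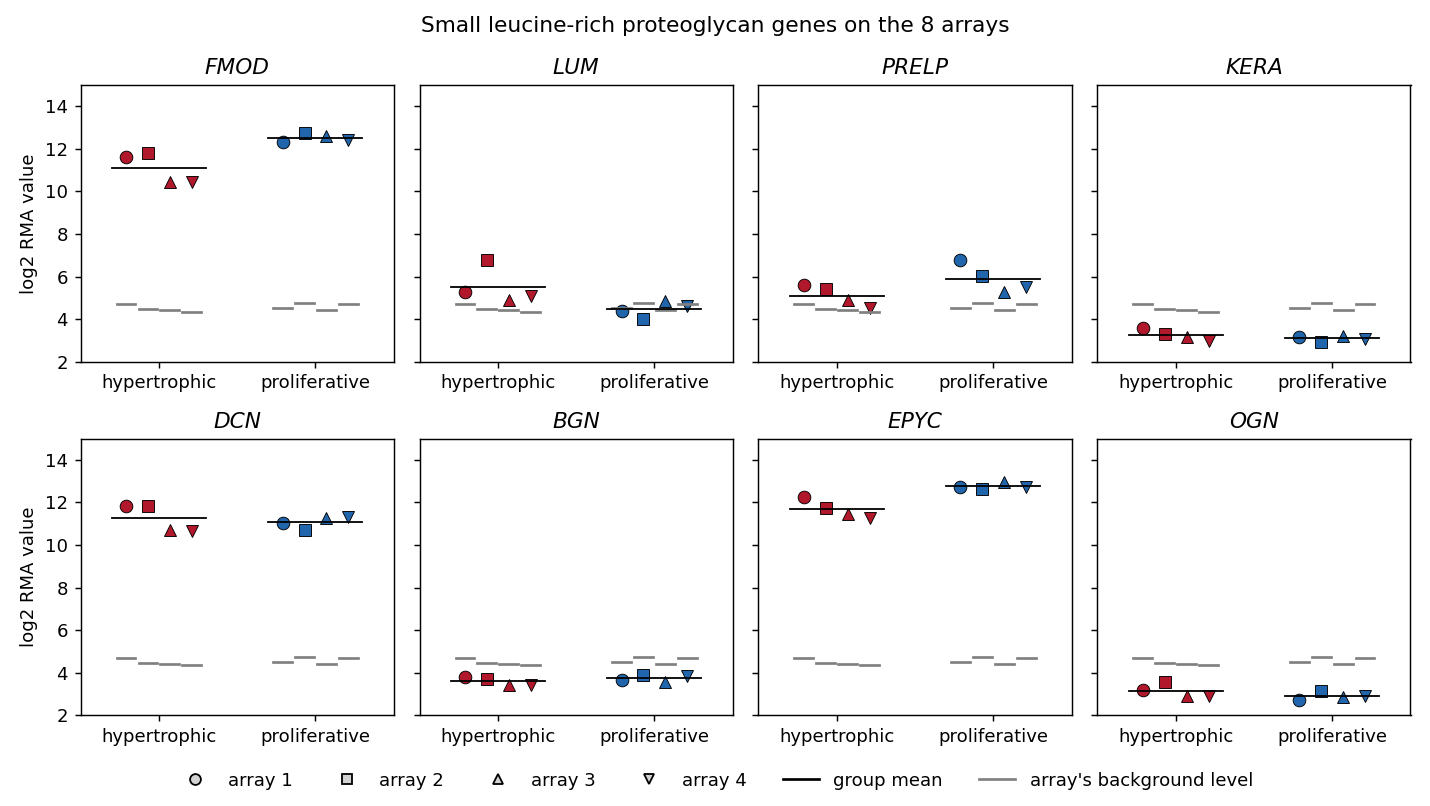
Log2 RMA value (y axis) of the probe set that represents each of the 8 genes on the 4 hypertrophic (red, left) and 4 proliferative (blue, right) arrays, with the symbol of a point giving the array number, black lines the group means and grey dashes each array's background level. FMOD and EPYC lie lower on all hypertrophic arrays, DCN overlaps, LUM and PRELP lie near background, and KERA, BGN and OGN lie below it.

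FMOD binds collagen fibrils through its repeats and carries keratan sulfate chains and sulfated tyrosines. Its log2 values were 11.62, 11.82, 10.43 and 10.44 on hypertrophic arrays 1 to 4, against 12.34, 12.72, 12.59 and 12.41 on proliferative arrays 1 to 4. Every hypertrophic array lay below every proliferative array, as in 9.67% of all genes, and hypertrophic arrays 3 and 4 lay lowest. Hypertrophic cells averaged 11.1 ± 0.75 and proliferative cells 12.5 ± 0.17 (SD, n = 4 each). The log2 difference was -1.44 ± 0.32 (adjusted p = 0.0279 in limma). The call did not survive averaging arrays 3 and 4 (difference -1.23, adjusted p = 0.150). It held when hypertrophic array 1 or 2 was left out (adjusted p = 0.0134 and 0.0202) and was lost without any 1 of the other 6 arrays (hypertrophic 3 and 4, and proliferative 1 to 4), with adjusted p from 0.0593 to 0.0835.

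LUM carries keratan sulfate and shares a collagen binding region with FMOD. It was at 5.28, 6.79, 4.89 and 5.08 on hypertrophic arrays 1 to 4, against 4.40, 4.00, 4.85 and 4.60 on proliferative arrays 1 to 4. All hypertrophic arrays were above their background level and 1 of the 4 proliferative arrays was, and array 2 held both the highest hypertrophic and the lowest proliferative value. The groups did not overlap, as in 10.6% of all genes with the hypertrophic arrays on top. The difference of 1.05 ± 0.39 did not pass (adjusted p = 0.147), nor did it in any fit without 1 of the 8 arrays (adjusted p from 0.117 to 0.286). Without hypertrophic array 2 the difference was 0.62. The fibroblast marker POSTN, named after its values were seen, was also highest on that array. POSTN was at 5.23, 8.30, 4.05 and 3.79 on hypertrophic arrays 1 to 4 and at 3.66 to 4.05 on proliferative arrays. Of the other markers in its list, COL3A1 and TNC were highest on array 2 among hypertrophic arrays. COL1A1, COL12A1, COL14A1, TNMD, SCX (below background), PRRX1 and THY1 were highest on hypertrophic array 1, and COL1A2, MKX and THBS4 on array 3 or 4. The part of these markers in the values of LUM was not tested.

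PRELP, whose basic end binds heparan sulfate and whose repeats bind collagen, was at 5.59, 5.41, 4.91 and 4.52 on hypertrophic arrays 1 to 4. On proliferative arrays 1 to 4 it was at 6.77, 6.02, 5.27 and 5.50. All 8 values were above background, and the groups overlapped because hypertrophic array 1 lay above proliferative arrays 3 and 4, and hypertrophic array 2 above proliferative array 3. The difference of -0.79 ± 0.35 did not pass (adjusted p = 0.220), but arrays 1 and 2 were brighter than arrays 3 and 4 in both groups, and with that split as a block it passed (adjusted p = 0.0201). That block counts arrays 3 and 4 as separate samples. KERA, the keratan sulfate proteoglycan of the cornea, ran from 2.97 to 3.57 on hypertrophic and 2.95 to 3.21 on proliferative arrays, below background on all of them, so its difference of 0.15 ± 0.14 is between values below background.

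DCN, which binds collagen and TGF-beta and carries a chondroitin or dermatan sulfate chain, was bright in both groups. It had values of 11.81, 11.85, 10.70 and 10.66 on hypertrophic arrays 1 to 4, against 11.05, 10.70, 11.25 and 11.32 on proliferative arrays 1 to 4. Hypertrophic arrays 1 and 2 lay above all proliferative arrays, and hypertrophic arrays 3 and 4 lay close to the lowest of them. The difference of 0.18 ± 0.31 did not pass (adjusted p = 0.821), and its direction turned without hypertrophic array 1 (-0.01) or hypertrophic array 2 (-0.02). Hypertrophic cells averaged 11.3 ± 0.67 and proliferative cells 11.1 ± 0.28 (SD, n = 4 each).

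BGN is the closest relative of DCN in mammals. Its 4 probe sets ran from 2.58 to 3.79 on hypertrophic arrays and from 2.74 to 3.91 on proliferative arrays, all below background. Their differences were -0.15 ± 0.13, 0.03 ± 0.12, -0.13 ± 0.15 and 0.09 ± 0.13, none past the test (adjusted p from 0.589 to 0.924). In the RefSeq table of assembly GRCg7b the gene with this symbol lies on chromosome 12 between ECM2 and OMD, the place that asporin (ASPN) holds in human and mouse. The symbol was kept as the annotation gives it, and which of both proteins these probe sets read was not tested.

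EPYC is a dermatan sulfate proteoglycan first described in epiphyseal cartilage. It was at 12.24, 11.75, 11.47 and 11.29 on hypertrophic arrays 1 to 4, against 12.75, 12.62, 12.97 and 12.74 on proliferative arrays 1 to 4. No hypertrophic array reached a proliferative one, as in 9.67% of all genes, and the hypertrophic values were the more spread. Hypertrophic cells had a mean of 11.7 ± 0.42 and proliferative cells one of 12.8 ± 0.15 (SD, n = 4 each). The log2 difference was -1.08 ± 0.20 (adjusted p = 0.0129 in limma). It passed whichever of the 8 arrays was left out (adjusted p from 8.6e-04 to 0.0477), with differences between -1.27 and -0.95, but not with arrays 3 and 4 averaged (difference -0.95, adjusted p = 0.0953). OGN, also called mimecan and a member of the same subfamily, ran from 2.89 to 3.58 on hypertrophic and 2.74 to 3.14 on proliferative arrays, below background throughout, with a difference of 0.22 ± 0.17.

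**Figure D2:**
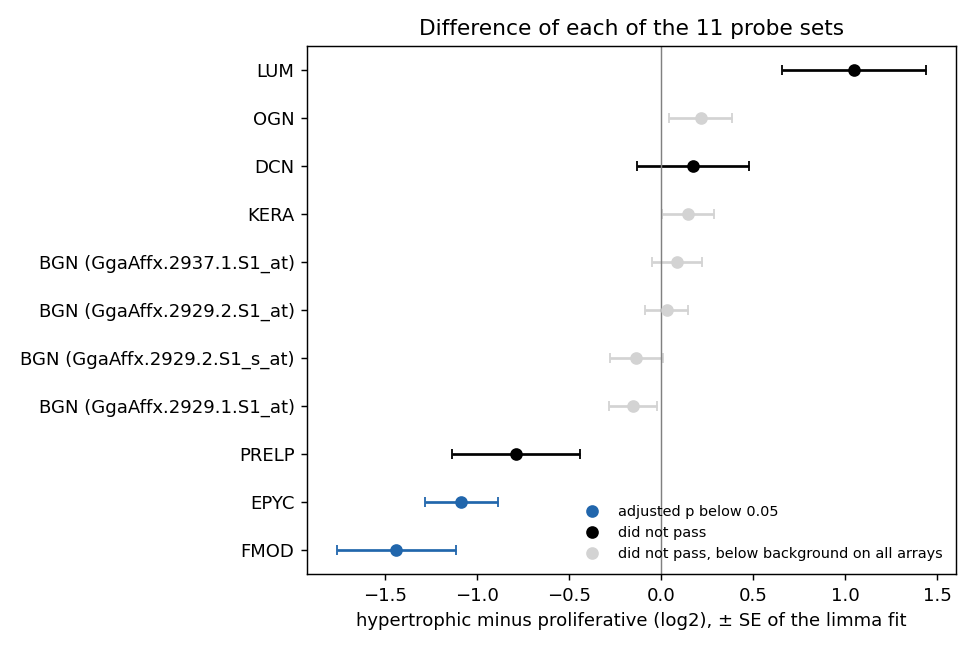
Difference between hypertrophic and proliferative means (x axis, log2, with bars of ± 1 SE of the limma fit) for each of the 11 probe sets. FMOD and EPYC (blue) passed the test, DCN, LUM and PRELP (black) did not, and the 6 probe sets of BGN, OGN and KERA (grey) were below background on all 8 arrays.

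The genes that fell, FMOD with keratan sulfate and EPYC with dermatan sulfate, carry different chains, while DCN, which carries a chain of the same kind as EPYC, and LUM, which carries one of the same kind as FMOD, did not pass. Whether the difference of one gene departs from that of another was not tested. With each profile centred on its own mean, EPYC was the member closest to FMOD, at a root mean square distance of 0.374 over the 8 arrays, and DCN and LUM were at 0.845 and 1.32, against a median of 0.866 over 12555 genes. The genes closest to FMOD were NEK2, a kinase of centrosome separation, ERI2 and the cytokinesis regulator RACGAP1, at 0.145, 0.184 and 0.190. Those closest to EPYC were TSPAN15, LRRC1 and the proline synthesis enzyme ALDH18A1, at 0.0966, 0.110 and 0.110. These distances describe 8 arrays in 2 groups and take in the difference between the groups.

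Within the hypertrophic group the family split by array. In the 5 genes above background on all hypertrophic arrays (FMOD, DCN, LUM, PRELP and EPYC), both of hypertrophic arrays 1 and 2 lay above both of arrays 3 and 4, as in 35% of all genes. The probe sets that represent BGN, OGN and KERA had the same order, but below background, where the background level itself was 4.70 and 4.47 on arrays 1 and 2 and 4.42 and 4.34 on arrays 3 and 4, and the other 3 probe sets of BGN overlapped. Among the 5 genes the gap was widest in FMOD, with means of 11.7 on arrays 1 and 2 and 10.4 on arrays 3 and 4, followed by DCN with 11.8 and 10.7. Proliferative arrays did not repeat it, since arrays 1 and 2 lay above arrays 3 and 4 in PRELP alone of the 5 (23.2% of all genes) and below them in DCN and LUM (20.3% of all genes), with LUM below background on 3 of the 4 proliferative arrays.

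Differences between the cell stages varied with the arrays that were compared. FMOD differed by -0.81 within arrays 1 and 2 and by -2.06 within arrays 3 and 4. EPYC likewise differed by -0.68 and by -1.48, and PRELP by -0.90 and by -0.68, so the direction was the same in both sets for these 3 genes. LUM was higher in hypertrophic cells in both sets, by 1.84 and by 0.26, the first against proliferative values below background. DCN alone of the 5 changed direction between the sets. It differed by 0.96 within arrays 1 and 2 (adjusted p = 0.0629 in limma) and by -0.60 within arrays 3 and 4 (adjusted p = 0.00632), where the p rests on arrays that are nearly alike. Whether the sets differ was not tested.

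**Figure D3:**
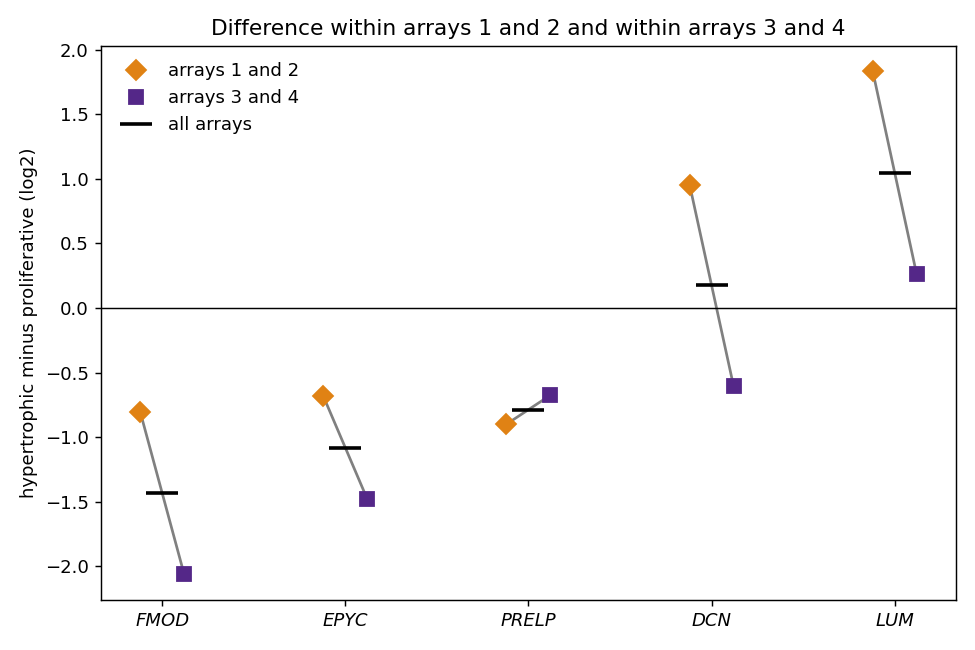
Hypertrophic minus proliferative difference (y axis, log2) of the 5 genes above background on all hypertrophic arrays (LUM was above it on 1 of 4 proliferative arrays), from arrays 1 and 2 of each group (orange), from arrays 3 and 4 (purple) and from all arrays (black bar). FMOD, EPYC and PRELP are below 0 in both sets, LUM is above 0 in both, and DCN lies at 0.96 in one and -0.60 in the other.

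Several other measures moved with that split, in both directions. Summed hypertrophic markers were lower on hypertrophic arrays 1 and 2, at 15.3 and 15.7, than on arrays 3 and 4, at 15.9 and 15.8. On proliferative arrays 1 to 4 that sum was 13.68, 14.56, 14.98 and 14.996. Single genes of the list went both ways in the hypertrophic group. COL10A1, SPP1, IBSP, MMP13 and VEGFA had lower means on hypertrophic arrays 1 and 2 than on arrays 3 and 4 (MMP13 9.80 against 11.5). IHH, ALPL, RUNX2 and PANX3 had higher means on hypertrophic arrays 1 and 2 (PANX3 13.0 against 11.3). Summed osteoblast markers, a list that also holds the collagen gene COL1A1, were at 12.9, 12.9, 11.9 and 12.1 on hypertrophic arrays 1 to 4, against 12.1 to 12.2 on proliferative arrays. Its other genes did not all follow the sum. On hypertrophic arrays 1 to 4 PHEX was at 4.66, 5.51, 8.30 and 7.92 and DMP1 at 8.29, 8.39, 9.03 and 9.26. MEPE was at 9.78, 9.50, 9.81 and 10.16 there, and BGLAP at 7.60, 6.97, 6.78 and 6.72. The summed level of 13 fibroblast, perichondrium and tendon markers (log2 of the sum of linear values) was 13.4 and 13.3 on hypertrophic arrays 1 and 2 and 12.3 and 12.4 on arrays 3 and 4, against 13.2 to 13.3 on proliferative arrays. Collagen I, COL1A1, made up much of this sum and of the osteoblast sum. COL1A1 was at 12.66, 12.62, 11.04 and 11.15 on hypertrophic arrays 1 to 4 and 11.97 to 12.08 on proliferative arrays. Of the fibroblast, perichondrium and tendon markers MKX and THBS4 rose and COL12A1 fell, 10 did not pass, and the tendon factor SCX was below background on all arrays. With arrays 3 and 4 averaged THBS4 kept its call (adjusted p = 0.0321 in limma), and MKX and COL12A1 lost theirs (adjusted p = 0.132 and 0.128). Summed osteoclast markers ran at 11.2, 10.8, 9.50 and 9.54 on hypertrophic arrays 1 to 4, against 8.89 to 9.30 on proliferative arrays. CTSK made up much of this sum, at 10.96, 10.68, 9.14 and 9.13 on hypertrophic arrays 1 to 4. On the same arrays ATP6V0D2 was at 8.25, 7.01, 6.80 and 7.14 and OCSTAMP at 4.81, 4.54, 4.83 and 4.50. DCSTAMP and CALCR were below background on all arrays. Summed markers of leukocytes ran at 10.4, 9.28, 8.60 and 8.55 on hypertrophic arrays 1 to 4, against 7.79 to 8.22 on proliferative arrays. Summed proliferation markers were also higher on hypertrophic arrays 1 and 2, at 11.3 and 10.9, than on arrays 3 and 4, at 10.2 and 10.04, and ran from 11.89 to 11.99 on proliferative arrays. The actin control, as 3' minus 5' probe set, was 1.58, 1.35, 0.86 and 1.06 on hypertrophic arrays 1 to 4 and 1.90, 1.80, 0.97 and 0.86 on proliferative arrays 1 to 4. The GAPDH control was -0.059, -0.365, -0.435 and -0.452, against -0.526, -0.336, -0.467 and -0.486, so on proliferative arrays it did not follow the split. Neither differed between the cell stages in an exact permutation test (two-sided p = 0.600 and 0.229, n = 4 each), which does not test the split. Of the other marker lists, 3 of 8 endothelial markers (CDH5, TEK and VWF) rose, as did MEPE of 5 osteoblast, ATP6V0D2 of 5 osteoclast and CD74 of 6 leukocyte markers. CD3E of the leukocyte and MATN3 of 9 chondrocyte markers fell, and 0 of 3 erythroid markers passed. Over all genes 7.34% rose and 5.6% fell. With arrays 3 and 4 averaged, CDH5, TEK, MEPE and ATP6V0D2 kept their calls (adjusted p = 0.0112, 0.0438, 0.00667 and 0.0286 in limma). Those of VWF, CD74, CD3E and MATN3 were lost (adjusted p = 0.0914, 0.108, 0.107 and 0.215). The part of any of these in the members' values was not tested.

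The other leucine-rich repeat matrix proteins on the array included further genes that fell. Of 6 measured, 2 fell and none rose, where 5.6% of all genes fell and 7.34% rose, and the median difference was -0.45. TSKU (tsukushi), a secreted inhibitor of BMP signalling first found in chick, was at 5.91, 5.36, 5.45 and 5.46 on hypertrophic arrays 1 to 4, against 8.33, 7.13, 7.62 and 7.42 on proliferative arrays 1 to 4. Its log2 difference was -2.08 ± 0.25 (adjusted p = 0.00210). TSKU passed with arrays 3 and 4 averaged (adjusted p = 0.0324), and had the same difference within both sets of arrays, -2.09 and -2.06. OPTC (opticin), a protein of the vitreous body of the eye in the subfamily of EPYC, was at 6.84, 7.07, 6.26 and 6.55 on hypertrophic arrays, against 7.78, 7.86, 7.58 and 7.68 on proliferative arrays. OPTC fell by 1.05 ± 0.17 (adjusted p = 0.00814, or 0.0568 with arrays 3 and 4 averaged). CHADL, a relative of CHAD that binds collagen, was bright in both groups and differed by -0.48 ± 0.18 (adjusted p = 0.142), and ECM2, NYX and PODN were at or near background.

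The measured members lie in clusters in the chicken genome, which the choice of genes did not use. CHAD, which was not analysed here, lies outside them on chromosome 18. In assembly GRCg7b, EPYC, KERA, LUM and DCN follow each other on chromosome 1, FMOD, PRELP and OPTC on chromosome 26, and ECM2, BGN, OMD and OGN on chromosome 12. On chromosome 26 the 3 genes had differences of -1.44, -0.79 and -1.05, and FMOD and OPTC passed. On chromosome 1 the differences were -1.08, 0.15, 1.05 and 0.18 in genome order, so EPYC fell next to KERA, which was below background. On chromosome 12, BGN and OGN were below background on all arrays and ECM2 on 7 of 8.

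Enzymes that build glycosaminoglycan chains were lower more often than higher. Of 24 measured genes of the linkage region and of chondroitin and dermatan sulfate, 7 fell, 1 rose and 16 did not pass, where 5.6% of all genes fell and 7.34% rose. The median difference from all 8 arrays was -0.62 beside -0.01 over all genes, but its size varied with the arrays compared. Summed (log2 of the sum of linear values), the list was at 13.92, 13.81, 13.35 and 13.33 on hypertrophic arrays 1 to 4. On proliferative arrays 1 to 4 that sum was 14.29, 14.14, 14.44 and 14.47. XYLT1, the xylosyltransferase that starts a chain on the core protein, was at 8.14 to 8.56 on hypertrophic arrays and 9.97 to 10.6 on proliferative arrays, and fell by 1.90 ± 0.16 (adjusted p = 5.29e-04). The sulfate transporter SLC26A2 fell by 1.85 ± 0.23, the chondroitin synthase CHSY3 fell by 1.62 ± 0.23 and the chondroitin sulfotransferase CHST12 fell by 1.46 ± 0.18. Their groups did not overlap, as in 9.67% of all genes with the hypertrophic arrays below. That adds no support, since these genes were named for large differences past the test. The falls of XYLT1, SLC26A2, CHSY3 and CHST12 held with arrays 3 and 4 averaged, and no other fall of the list did. In that order they differed by -1.54, -1.24, -1.05 and -1.06 within arrays 1 and 2. Within arrays 3 and 4 they differed by -2.27, -2.47, -2.19 and -1.86. Among genes that did not pass, CHPF2 differed by 0.61 and -1.11 in these sets, and DSE by -0.82 and -0.29. DSEL, the gene that rose, was below background on every array and did not pass with arrays 3 and 4 averaged (adjusted p = 0.0966). Without 1 array the list had from 5 falls (without proliferative array 3 or 4) to 8 (without proliferative array 2). The fall of CHPF (adjusted p = 0.0496 in limma) passed in 2 of the 8 fits without 1 array. Without hypertrophic array 1 the list had 2 rises in place of 1.

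Keratan sulfate enzymes had a median difference of -0.60 from all 8 arrays. Of 11 measured 2 fell, 1 rose and 8 did not pass, beside 5.6% of all genes that fell and 7.34% that rose. The sialyltransferase ST3GAL1 fell by 1.24 ± 0.20 (adjusted p = 0.00787) and the galactosyltransferase B4GALT4 fell by 0.96 ± 0.20 (adjusted p = 0.0220), while the sulfotransferase CHST2 rose by 1.09 ± 0.15 (adjusted p = 0.00368). Within arrays 1 and 2, ST3GAL1, B4GALT4 and CHST2 differed by -1.22, -0.59 and 0.93, and within arrays 3 and 4 by -1.26, -1.33 and 1.25. CHST6, which sulfates keratan sulfate in the cornea, was at 9.93 to 10.6 on hypertrophic and 10.8 to 11.1 on proliferative arrays, and did not pass (adjusted p = 0.0682). The call of B4GALT4 did not hold with arrays 3 and 4 averaged (adjusted p = 0.143), nor without hypertrophic array 3 or 4 or proliferative array 1, 3 or 4, where 1 gene of the list fell. Of the enzymes that sulfate tyrosines, TPST1 rose by 0.85 ± 0.16 (adjusted p = 0.0149, but 0.0519 without proliferative array 3 and 0.0851 with arrays 3 and 4 averaged), and TPST2 did not pass (adjusted p = 0.575).

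**Figure D4:**
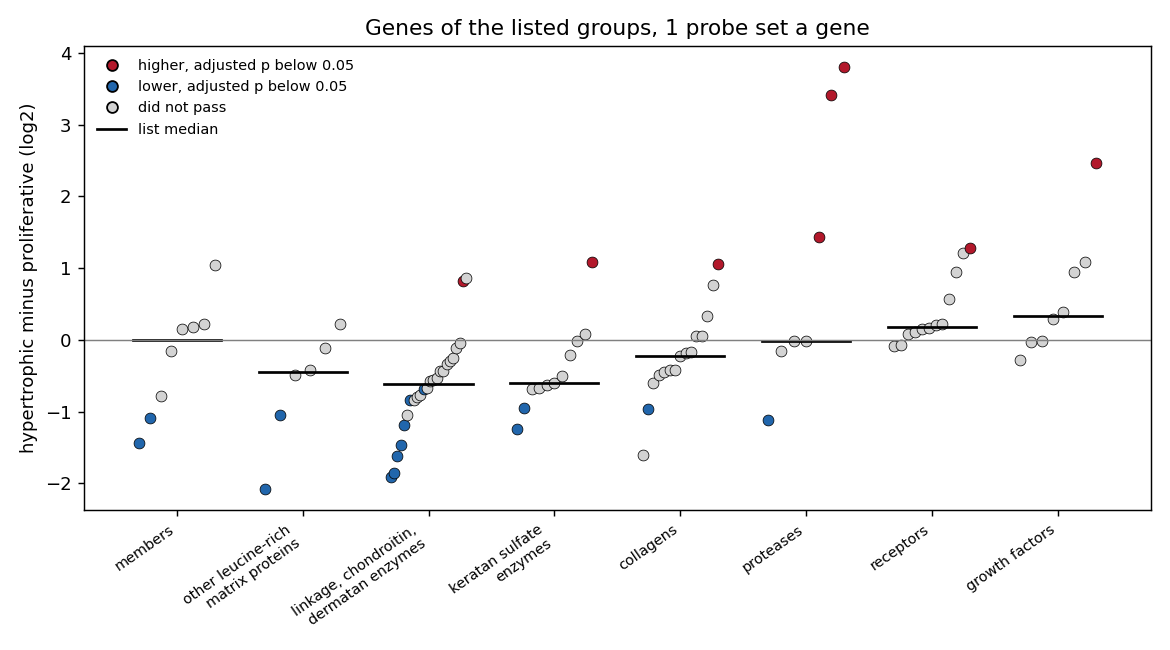
Hypertrophic minus proliferative difference (y axis, log2) of each measured gene in the family and in 7 related lists, 1 point a gene, red where higher and blue where lower past the test, grey where not, with the list median as a black line. Medians of the linkage, chondroitin and dermatan enzymes (-0.62) and of the keratan sulfate enzymes (-0.60) lie below 0, and MMP13 and MMP9 stand highest, among the proteases.

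Collagens that these proteoglycans bind mostly did not pass. Of 15 measured chains 1 rose and 1 fell, near the 7.34% and 5.6% of all genes, with a median difference of -0.22. COL6A3, a chain of the beaded collagen VI that DCN binds, rose by 1.05 ± 0.16 (adjusted p = 0.00668), and COL12A1, a collagen on fibril surfaces, fell by 0.97 ± 0.23 (adjusted p = 0.0357). COL6A3 held with arrays 3 and 4 averaged and without any 1 array, whereas COL12A1 did not (adjusted p = 0.128 averaged). Leaving out hypertrophic array 1 gave 4 falls, and leaving out any other array gave 0.

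In the list of proteases known to cleave or process the family, 3 genes rose and 1 fell among 7 measured, where 7.34% of all genes rose and 5.6% fell. The 7 include PCOLCE2, an enhancer of proteases and not itself one, which did not pass. MMP13 was at 9.33, 10.3, 11.6 and 11.4 on hypertrophic arrays 1 to 4, against 4.19, 5.88, 8.73 and 8.56 on proliferative arrays 1 to 4, of which array 1 was below background. It rose by 3.81 ± 1.00 (adjusted p = 0.0483). The gelatinase MMP9 rose by 3.41 ± 0.75 (adjusted p = 0.0255). MMP2, another gelatinase, fell by 1.11 ± 0.22 (adjusted p = 0.0160). ADAMTS5, an aggrecanase, was above background on 3 of 4 hypertrophic arrays and on 0 of 4 proliferative arrays, and rose by at least 1.20-fold, a bound on the estimate that leaves out sampling error (adjusted p = 0.0371). None of the 4 passed with arrays 3 and 4 averaged (adjusted p from 0.0794 to 0.182). The 3 rises were all lost without hypertrophic array 2, 3 or 4 or proliferative array 2, 1 was left without proliferative array 1, 3 or 4, and the fall of MMP2 was lost without proliferative array 3 (adjusted p = 0.0537).

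Among receptors and growth factors that bind these proteins, 1 gene each rose and none fell, of 12 and 8 measured. Over all genes 7.34% rose and 5.6% fell. TGFB2, a ligand of the family that DCN and FMOD bind, was at 10.03, 11.57, 11.09 and 11.36 on hypertrophic arrays 1 to 4, against 8.95, 9.31, 8.11 and 7.79 on proliferative arrays 1 to 4. TGFB2 rose by 2.47 ± 0.41 (adjusted p = 0.00847, or 0.0790 with arrays 3 and 4 averaged), and a further growth factor rose without hypertrophic array 1. The receptor kinase ERBB4 was likewise above background on 3 hypertrophic and 0 proliferative arrays and rose by at least 1.30-fold (adjusted p = 0.0179, or 0.124 with arrays 3 and 4 averaged). No receptor rose without hypertrophic array 2 or proliferative array 3 or 4, and 3 rose without hypertrophic array 1. EGFR, MET, TLR4, TLR2A, LRP1 and P2RX7 were below background on all arrays.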

How the data were processed

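RNA of pooled chondrocytes was hybridised to 8 Affymetrix chicken arrays, per the labels, which do not say how many pools there were. Per the submitters' processing notes, RMA gave the deposited log2 values; the program that ran it is not given in the sources used here. RMA compresses differences of dim probe sets. The number of arrays limits the precision. The 96 control probe sets were left out. Names came from the annotation of the platform, brought up to date through gene identifiers in RefSeq's GRCg7b table: 27168 have 1 symbol, 177 several and 11094 none. A gene is represented by its probe set with the highest mean. Tests used limma 3.58.1 in R 4.3.3 (lmFit, eBayes) with all 8 arrays and no covariate, and were checked on simulated data.

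Where 1 group was below background on all its arrays, a bound sets those arrays to the highest background level, 4.75. The members, the 8 related lists, the 9 marker lists, the tests and the alternatives were chosen with earlier results of these data known. Of each list the text names up to 4 genes with the largest difference past the test, or up to 2 with the smallest p, and the 3 genes nearest to each called member; others were named after their values were seen. Same-numbered arrays of both groups were checked for pairing: correlations of their deviations from the group means were 0.206, 0.0255, 0.252 and -4e-04, and the numbers were not taken as pairs. Between arrays 1 and 2 of both groups, and between arrays 3 and 4 of both, these correlations ran from -4e-04 to 0.369. Between arrays 1 or 2 of one group and arrays 3 or 4 of the other they ran from -0.406 to -0.0115. The alternatives were a dim probe set filter, 3 normalisations, the variance model, array weights, 2 blocks, leaving out each array, arrays 3 and 4 averaged, arrays 1 and 2 alone, the choice of probe set and, added later, arrays 3 and 4 alone.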

Additional observations from a re-analysis of the deposited data

Results flagged for a closer look

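BTG2, the gene next to FMOD in assembly GRCg7b, stood at 12.4 on proliferative array 1, below the 12.7 to 12.8 of the other 3 proliferative arrays, a gap that is large for the range of the group. Such gaps arise by chance in about 1 in 20 groups, and of 78 groups of 4 arrays looked at this was the only 1 flagged. No member's values had 1 array apart from the rest of its group in this way. BTG2 was also lowest on array 1 in the hypertrophic group, by a wider gap in log2. There it was at 11.15, 12.62, 12.98 and 12.98 on arrays 1 to 4. That group was not flagged, since the rule sets the gap against the range of the group.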

How the results depend on the processing

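Of 203 recomputed differences of the 11 probe sets, 176 kept their direction and their side of the threshold, 10 lost the call, 3 gained it and 14 changed direction. FMOD and EPYC lost their calls as given above and on arrays 1 and 2 alone. PRELP gained one with the replicate block (difference -0.79, adjusted p = 0.0381), with arrays 1 and 2 against 3 and 4 as a block, and on arrays 3 and 4 alone, a setting chosen after seeing the data. The numbers were not taken as pairs, and the replicate block gave 3 falls among the members and, over all probe sets, 1566 higher and 1628 lower. No member rose under these alternatives. Of the 2 falls, by gene and by probe set, 0 were left with arrays 3 and 4 averaged and 0 on arrays 1 and 2 alone, 4 genes passed on arrays 3 and 4 alone, and 1 to 2 passed without 1 array. Over all probe sets, 1726 were higher and 1642 lower. Those counts were 3945 and 3811 with array weights, 2680 and 2853 with arrays 1 and 2 against 3 and 4 as a block, 428 and 327 with arrays 3 and 4 averaged, 486 and 683 on arrays 1 and 2 alone and 4909 and 5033 on arrays 3 and 4 alone. Without 1 array they ran from 831 (without proliferative array 4) to 2987 higher and from 677 (without proliferative array 3) to 2048 lower, both highest without hypertrophic array 1. Centring on ribosomal protein genes gave 3303 lower. It turned the differences of KERA (-0.0019) and of the BGN probe sets whose differences were 0.03 (-0.1194) and 0.09 (-0.0635). Array weights turned DCN (-0.26), the first of those BGN probe sets (-0.0322), KERA (-0.0005) and BTG2 (0.1572). Arrays 3 and 4 alone turned DCN (-0.6045), the first BGN probe set (-0.0568), OGN (-0.0006), KERA (-0.0787) and BTG2 (0.258), and arrays 1 and 2 alone turned the second BGN probe set (-0.0632). Without 1 array, DCN ran from -0.0242 to 0.375, the first BGN probe set from -0.0442 to 0.1108 and BTG2 from -0.4022 to 0.2084. Of 532 differences of other named genes, 83 lost the call, 1 (ATP2B1) gained it and 3 turned, all of BTG2. Of 304 list counts, 76 moved by over 1.5 times. The cause of these changes was not tested. Signals below background limit what can be said of BGN, OGN and KERA.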

Other observations

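The clusters on chromosomes 1 and 26 have matching neighbours in assembly GRCg7b. BTG1 and ATP2B1 lie near the cluster of DCN, LUM, KERA and EPYC, and BTG2 and ATP2B4 near that of FMOD, PRELP and OPTC, and these 4 genes were looked at after the neighbours had been read. ATP2B4, a calcium pump of the plasma membrane, was at 9.62, 9.80, 9.10 and 9.44 on hypertrophic arrays 1 to 4, against 8.79, 8.83, 8.36 and 8.30 on proliferative arrays 1 to 4, and rose by 0.92 ± 0.19 (adjusted p = 0.0194 in limma), although FMOD and OPTC of the same cluster fell. That call did not hold with arrays 3 and 4 averaged (adjusted p = 0.0813) or without hypertrophic array 2 or proliferative array 3 or 4 (adjusted p from 0.0528 to 0.0653). ATP2B1, the related pump near EPYC, differed by -0.62 ± 0.25 (adjusted p = 0.172). The antiproliferative genes BTG1 and BTG2 differed by -0.24 ± 0.14 and -0.22 ± 0.37, neither past the test (adjusted p = 0.393 and 0.816).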
